A study of Rattus norvegicus with 11 samples.

Results

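Complement is a set of plasma and tissue proteins that tag and lyse foreign or damaged cells. The members described here are C1qb, C1qc, C1s, C4a, C4b, C3, Cfd and Cfi, which cover the classical pathway, the start of the alternative pathway, the component on which both converge and one of its regulators. They were taken as every probe set whose platform gene symbol field holds one of these 8 symbols, including fields with several symbols, which gave 11 of the 8740 probe sets that are not controls. No probe set was annotated to Cfi, so 7 of the 8 genes have values, among 5147 gene symbols on the array. The symbols had been chosen with the results of the old against young comparison known, so their differences with age are given as a description without a test.

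Total RNA of the ventricle of the heart was measured in Fischer-344 rats, which are an inbred laboratory strain. One group of 6 arrays came from rats of 22 months, called old, and the other of 5 arrays from rats of 4 months, called young. No treatment, sex or genotype beyond the strain is given in the labels, and they do not say that the arrays of a group stand for separate animals, so the spread within a group may be technical. The deposited values are linear intensities, 1 per probe set and array, where a probe set is several short probes to 1 transcript that are read together. The platform is an Affymetrix rat array, and its intensities can be compared between arrays for 1 probe set but not between probe sets.

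In the classical pathway, C1q binds antibody or altered cell surfaces, its attached proteases C1r and C1s are switched on, and C1s cuts C4 and C2 to form the enzyme that cuts C3. In the alternative pathway, factor D, encoded by Cfd, cuts factor B once that is bound to C3b, which forms a second enzyme that cuts C3. Factor I, encoded by Cfi, inactivates C3b and C4b with the help of cofactors. The liver makes most of the plasma pool of C3 and C4, macrophages are a main source of C1q, fibroblasts make C1r and C1s, and fat cells make factor D.

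C4a and C4b are near-identical copies of the C4 gene, and both of their probe sets carry both symbols. The windows around the start sites of members that differed between the groups are shown here for that likeness and for the letters they hold, as RefSeq sequences of build GRCr8. Each runs from 250 bases before to 50 bases after the start of the gene, 5′ to 3′ on the strand of the gene. Such a window was found for 6 of the 8 members. Over 291 aligned bases the C4a and C4b windows were identical at 279, or 95.9%, and they shared an unbroken run of 125 bases. The C4a window lies at chr20:4010107-4010406 on the plus strand, and the C4b window at chr20:4201729-4202028 on the plus strand. Capitals mark the E-box CACGTG, which reads the same on both strands.
C4a: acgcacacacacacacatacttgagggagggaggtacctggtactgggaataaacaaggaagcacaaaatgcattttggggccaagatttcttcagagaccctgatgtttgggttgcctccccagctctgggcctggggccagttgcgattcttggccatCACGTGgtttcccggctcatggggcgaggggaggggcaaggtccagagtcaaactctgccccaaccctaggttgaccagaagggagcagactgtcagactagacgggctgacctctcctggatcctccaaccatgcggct
C4b: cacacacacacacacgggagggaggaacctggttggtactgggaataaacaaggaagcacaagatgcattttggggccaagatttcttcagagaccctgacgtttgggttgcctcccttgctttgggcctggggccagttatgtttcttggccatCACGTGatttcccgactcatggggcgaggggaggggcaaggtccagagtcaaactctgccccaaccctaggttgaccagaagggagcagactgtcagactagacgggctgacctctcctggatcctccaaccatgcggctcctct
The C1qb window lies at chr5:154407778-154408077 on the minus strand, with the Ets core AGGAAG in capitals, which stands there on the opposite strand as its reverse complement.
C1qb: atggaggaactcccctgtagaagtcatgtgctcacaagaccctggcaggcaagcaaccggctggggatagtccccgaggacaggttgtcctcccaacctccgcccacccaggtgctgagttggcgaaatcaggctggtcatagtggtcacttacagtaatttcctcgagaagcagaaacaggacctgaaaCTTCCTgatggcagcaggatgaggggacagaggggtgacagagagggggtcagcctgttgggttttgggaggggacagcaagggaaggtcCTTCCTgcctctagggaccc
The Cfd window lies at chr7:10465447-10465746 on the minus strand, with the TATA-like letters ATAAAA in capitals.
Cfd: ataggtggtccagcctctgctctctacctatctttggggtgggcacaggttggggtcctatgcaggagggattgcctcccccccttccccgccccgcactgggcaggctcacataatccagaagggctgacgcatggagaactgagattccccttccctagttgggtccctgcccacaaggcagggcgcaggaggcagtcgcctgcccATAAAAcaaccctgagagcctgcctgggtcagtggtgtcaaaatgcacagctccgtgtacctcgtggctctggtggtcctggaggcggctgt
Both strands were searched for each motif, none of the matches overlaps another, and a match is only a match of letters. The Ets core was also found in the C4 windows, 194 bases before the start of C4a and 199 before that of C4b, and ATAAAA also in the C3 window, 44 bases before the start. The E-box was found in 6.42% of all 33469 promoter windows of the same length, the Ets core in 34.51% and ATAAAA in 20.55%. In the C4 windows the E-box begins 90 bases before the start of C4a and 95 bases before that of C4b. In the window of C3, the letters TTGCGNAA of a C/EBP motif begin 104 bases before the start, and 0.85% of all windows hold them. The letters TTCNNNGAA of the GAS motif, found in 8.87% of all windows, were in none of the 6 members' windows. In the RefSeq gene order C1qb, C1qc and C1qa are neighbours, and C1s lies next to C1r.

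Transcripts of the classical pathway read higher in old than in young hearts for C1s, C1qb and 1 of the 2 C4a/C4b probe sets, while C1qc differed by less than its standard error. That C4a/C4b probe set, U42719_at, had the widest difference, 3.27 ± 0.65 (SE) on the log2 scale, or 9.66-fold. The other, rc_AA800942_at, was dim and had a lower mean in old, with a difference of -0.57. Cfd, of the alternative pathway, was 3.23-fold higher in old. C3 read too dimly on most arrays to be compared. Values under a floor of 47.4, the 20th percentile over all arrays, were set to it before log2 was taken. Probe sets with a mean log2 value under that of an intensity of 128, the 40th percentile, were left out of the fit across 5244 probe sets, made with limma. Of the 11 member probe sets 6 passed this filter, and each of the 6 would have passed on the mean of its lower group alone, the lowest of which was 7.16. The dimmest member inside the filter was X71127_g_at of C1qb with a mean of 7.95, and the brightest outside was rc_AA800942_at of C4a/C4b with 6.65.

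**Figure D1:**
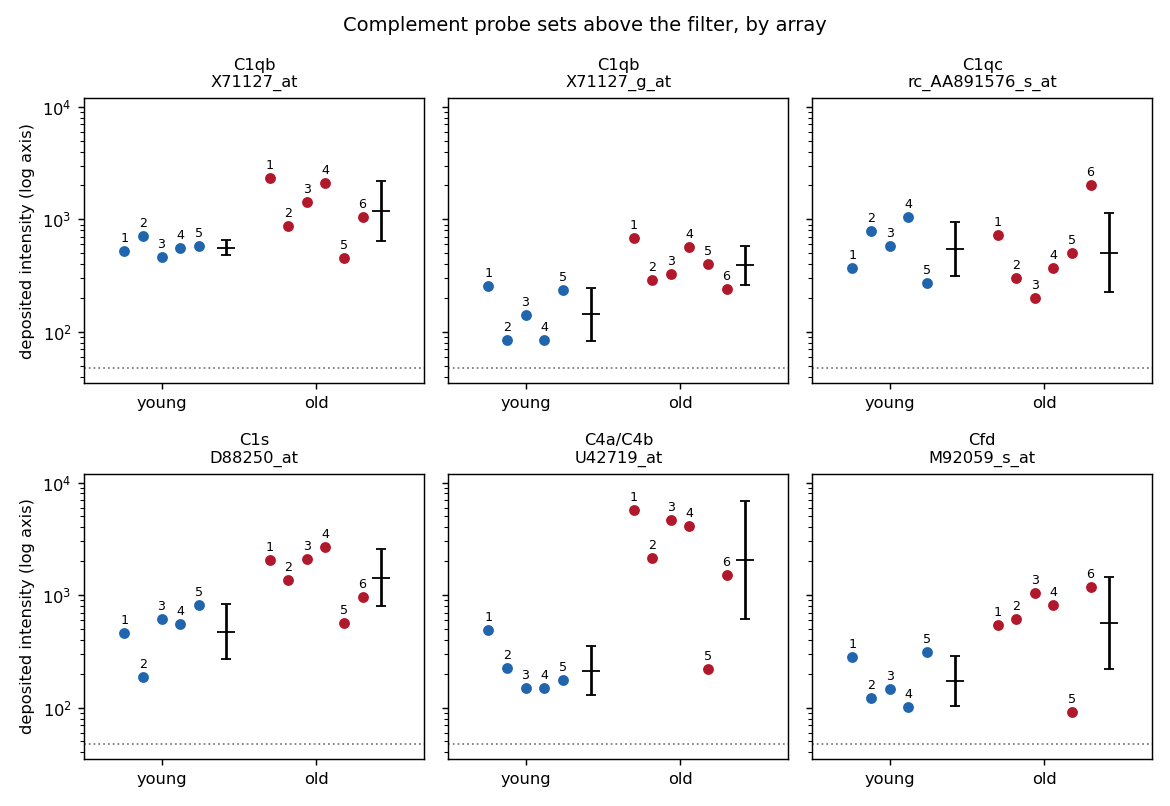
Deposited intensity on a log axis of the 6 complement probe sets above the filter, with 1 point per array labelled by its replicate number, and beside each group the mean and SD of the log2 values. The dotted line is the floor of 47.4. Old replicate 5 lies at the young level for C4a/C4b, Cfd, C1s and X71127_at of C1qb, and the other old arrays lie above all young ones for these 4 probe sets.

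C1qb encodes the B chain of C1q, the recognition part of C1, and is read by a pair of probe sets. The first, X71127_at, read 450 to 2320 in old with a median of 1232. In young it read 522, 710, 464, 559 and 579. Old replicate 5 was the lowest of all 11 arrays, and the other 5 old arrays lay above every young one. On the log2 scale the young mean was 9.13 ± 0.23 (SD, n = 5) and the old mean 10.22 ± 0.88 (SD, n = 6), with a difference of 1.08 ± 0.41 (SE). The young arrays thus lay close together and the old ones wide apart. The second, X71127_g_at, read 240.2 to 683 in old with a median of 362, and in young 256, 84, 141, 85 and 236. Here the old array inside the young range was replicate 6, at 240.2, and old replicate 5 lay above all young arrays at 399. Its log2 means were 7.16 ± 0.77 (SD, n = 5) in young against 8.60 ± 0.58 (SD, n = 6) in old, a difference of 1.44 ± 0.52 (SE). Both probe sets of C1qb therefore read higher in old in 5 of 6 arrays, with different arrays as the exception.

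C1qc encodes the C chain of the same protein, which joins the A and B chains in each C1q molecule. Its bright probe set, rc_AA891576_s_at, read 202 to 2019 in old with a median of 436, and in young 372, 788, 578, 1040.0 and 272. The groups overlapped throughout, with old replicate 6 the highest and old replicate 3 the lowest of all arrays. The difference was -0.11 ± 0.54 (SE) on the log2 scale, from 9.09 ± 0.79 (SD, n = 5) in young against 8.98 ± 1.17 (SD, n = 6) in old. Its direction was not stable, since the difference was above 0 under 7 of 24 alternatives and ran from -0.99 to 0.34. The other C1qc probe sets are of kinds for which the manufacturer could not pick a full set of unique probes. One, rc_AA891576_i_at, lay at or under the floor on 4 of 6 old and 4 of 5 young arrays. The other, rc_AA891576_r_at, read 13.9 to 548 in old and 7.9 to 260 in young, with 2 old and 3 young arrays at or under the floor.

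C1s encodes the serine protease of C1 that cuts C4 and C2. Its single probe set, D88250_at, read 562 to 2673 in old with a median of 1707. The young arrays read 458, 185, 618, 553 and 823. Old replicate 5 at 562 lay among the young arrays, and the other 5 old arrays lay above all of them. The log2 mean was 8.89 ± 0.82 (SD, n = 5) in young against 10.48 ± 0.84 (SD, n = 6) in old, a difference of 1.59 ± 0.45 (SE). Every old array was above the young mean.

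C4, the substrate of C1s, is cut so that one fragment binds covalently to the target surface. The probe set U42719_at, annotated to C4a and C4b, read 5716, 2114, 4606, 4109.8, 221 and 1497 in old replicates 1 to 6. In young replicates 1 to 5 it read 491, 227, 149.6, 149 and 177. Old replicate 5 lay below a pair of young arrays, and the other 5 old arrays exceeded the highest young array. The log2 means were 7.73 ± 0.72 (SD, n = 5) in young against 11.01 ± 1.74 (SD, n = 6) in old. The difference was the largest of the 5244 probe sets tested in the direction of old. The second C4a/C4b probe set, rc_AA800942_at, did not go with the first. It read 44.6 to 129 in old with a median of 89.0, and 91, 210.0, 311, 78 and 65 in young, and was below the filter. Its log2 means were 6.96 ± 0.98 (SD, n = 5) in young against 6.39 ± 0.62 (SD, n = 6) in old, a difference of -0.57 in means with the groups overlapping. The probe sets of C4a/C4b thus disagree, and the annotation does not tell which of the gene copies either reads.

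C3 encodes the component that both pathways cut. One of its probe sets, M29866_s_at, read 10.2 to 507 in old and 8.7 to 72 in young, with 3 of 6 old and 4 of 5 young arrays at or under the floor. The other, X52477_at, read 27.7 to 259 in old and 13.4 to 224 in young, with 2 old and 3 young arrays at or under the floor. The ranges overlapped for both, and their differences of 0.79 and 0.50 in log2 means rest on floored values. No call of presence came with the deposited values, so it is not known whether these readings stand above background.

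**Figure D2:**
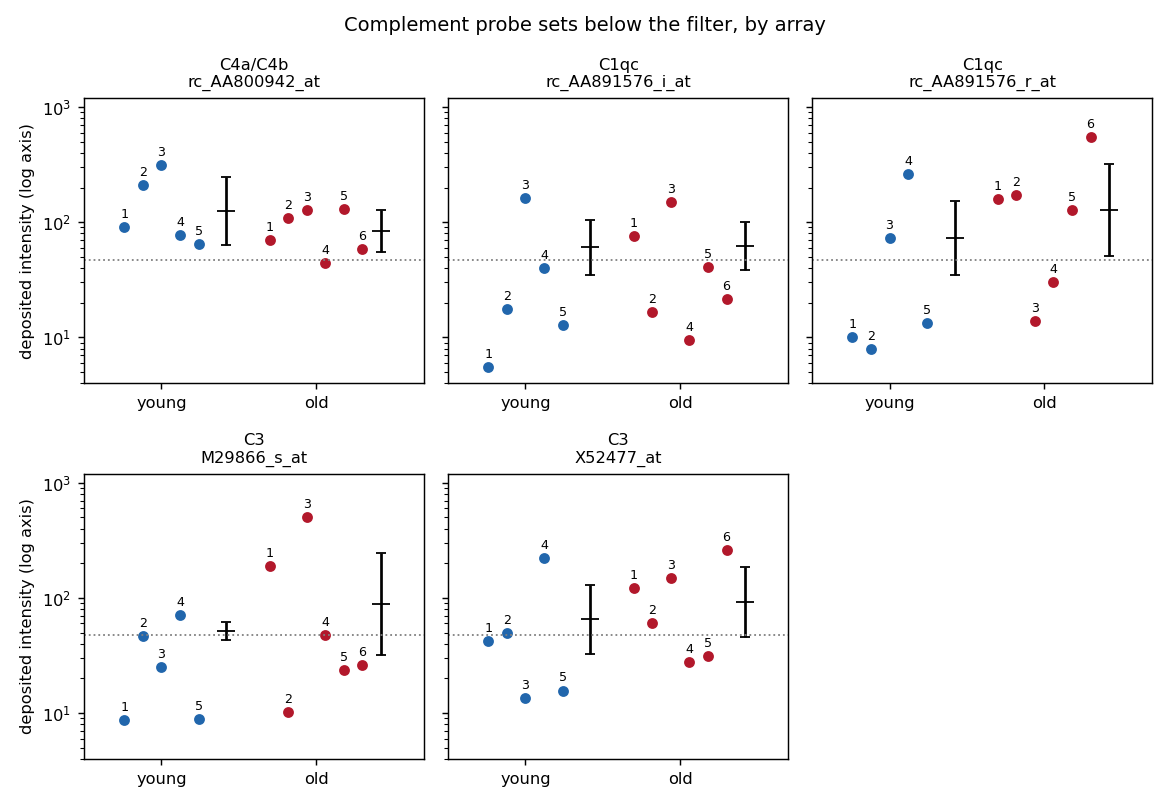
Deposited intensity on a log axis of the 5 complement probe sets below the filter, with 1 point per array labelled by its replicate number, and beside each group the mean and SD of the floored log2 values. The dotted line is the floor of 47.4. Old and young arrays overlap for all 5 probe sets, and C3 and C1qc arrays lie on both sides of the floor.

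Cfd encodes factor D, also called adipsin, the serine protease that cuts factor B. Its probe set M92059_s_at read 546, 618, 1044, 824, 91 and 1180.4 in old replicates 1 to 6. The young arrays read 281, 121, 147, 101 and 313. Old replicate 5 was the lowest of all 11 arrays, and the other old arrays all exceeded the highest young array. The log2 means were 7.44 ± 0.73 (SD, n = 5) in young against 9.13 ± 1.35 (SD, n = 6) in old, a difference of 1.69 ± 0.61 (SE). Without old replicate 5 the difference was 2.22 ± 0.48 (SE).

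Over the 6 member probe sets above the filter, 5 were higher in old, against 49.4% of all probe sets tested. The same 5 differed by more than 1 on the log2 scale, against 6.62% of all. The median difference of the 6 was 1.52, and that of all probe sets -0.01. Old and young arrays failed to overlap for 0 of the 6, where old lay wholly above young for 0.553% and wholly below for 0.42% of all probe sets. The symbols had been picked on this contrast, so the counts describe the choice. Old replicates 1, 2, 3 and 4 each exceeded every young array on 5 of the 6 probe sets. Old replicate 6 also did so on 5, with C1qc in place of X71127_g_at of C1qb, and old replicate 5 on 1, X71127_g_at. These counts by array also describe the choice, and the same share over all probe sets was not counted. No probe set among the 5244 passed limma's adjusted p of 0.05 with all arrays (0%, 394 at an unadjusted p under 0.05). That count was 2 without old replicate 5. In bulk tissue, a change in the number of cells of a type and a change in RNA per cell cannot be told apart.

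To set the pathways side by side, the classical members were averaged per array, each gene first over its probe sets above the filter, and compared with Cfd. The classical mean was 8.46 ± 0.17 (SD, n = 5) in young against 9.97 ± 0.76 (SD, n = 6) in old, a difference of 1.51 ± 0.35 (SE). It lay between 8.66 and 10.82 in old and between 8.23 and 8.71 in young, so that old replicate 5 at 8.66 was the old array inside the young range. The classical mean and Cfd, which alone stands for the alternative pathway here, thus lay above every young array on the same 5 old arrays. The classical mean joins differences from -0.11 (C1qc) to 3.27 (U42719_at), so it does not stand for each classical member. The classical mean minus Cfd was 1.03 ± 0.67 (SD, n = 5) in young against 0.84 ± 0.92 (SD, n = 6) in old. This gap differed between the groups by -0.19 ± 0.50 (SE), less than its standard error, and its ranges, -0.10 to 2.15 in old and 0.15 to 1.87 in young, overlapped. That does not show the pathways to shift alike, since the standard error allows gaps of either sign.

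**Figure D3:**
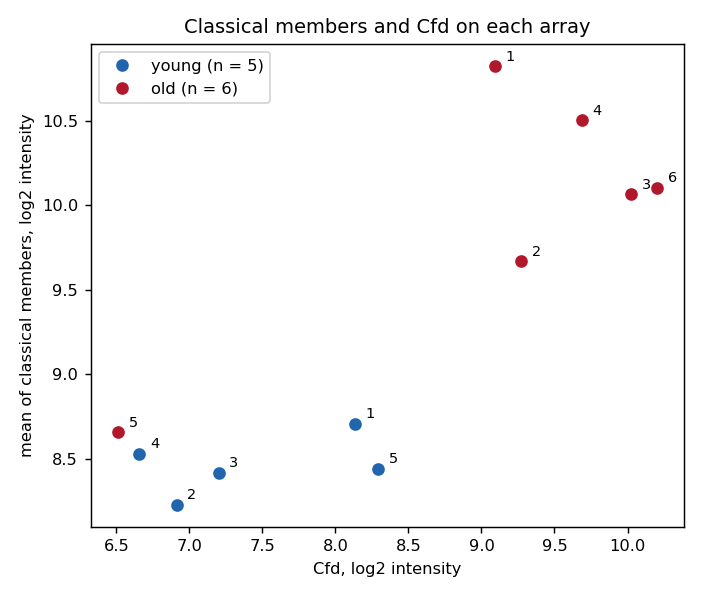
Mean log2 intensity of the classical members against the log2 intensity of Cfd, with 1 point per array labelled by its replicate number. Of the 6 old arrays 5 lie at the upper right, with a classical mean of 9.67 or more and Cfd at 9.09 or more, and old replicate 5 lies with the 5 young arrays.

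The arrays also differed in their control readings, which fell unevenly over the age groups. The bacterial spike-in controls, transcripts added to each sample, were bright on 5 arrays (old replicates 3 to 6 and young replicate 4) and dim on 6. These classes were cut at the widest gap in the mean log2 spike-in intensity. Young replicate 4 stood between the others at 11.97, with the dim arrays at most at 10.20 and the bright old arrays at 13.19 to 15.24. The 3' over 5' ratio of the GAPDH control, which increases as RNA is degraded, was 3.39 and 4.09 on the log2 scale in old replicates 3 and 4 and at most 0.77 on the other arrays. For C4a/C4b (U42719_at) the difference was 3.90 ± 0.57 (SE) within the dim arrays, which hold 2 old and 4 young arrays. Within the bright arrays, which hold 4 old and 1 young, it was 3.41 ± 1.15 (SE). For Cfd the same values were 1.55 ± 0.55 and 2.45 ± 1.35 (SE), and for C1s 1.88 ± 0.56 and 1.26 ± 0.85 (SE). For C1qb they were 1.34 ± 0.45 and 0.96 ± 0.86 (SE) by X71127_at, and 1.45 ± 0.64 and 2.11 ± 1.33 (SE) by X71127_g_at. With 1 young array the bright class holds no young spread, and its standard errors assume that this array varies like the old ones. Without old replicates 3 and 4, the differences were 2.73 ± 0.72 (SE) for C4a/C4b, 1.33 ± 0.69 (SE) for Cfd and 1.23 ± 0.49 (SE) for C1s, smaller than with all arrays. C1qb then differed by 0.81 ± 0.45 (SE) by X71127_at and 1.37 ± 0.58 (SE) by X71127_g_at. The classical mean minus Cfd differed between old and young by 0.25 in the dim class and by -1.15 in the bright class, so its direction turned.

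**Figure D4:**
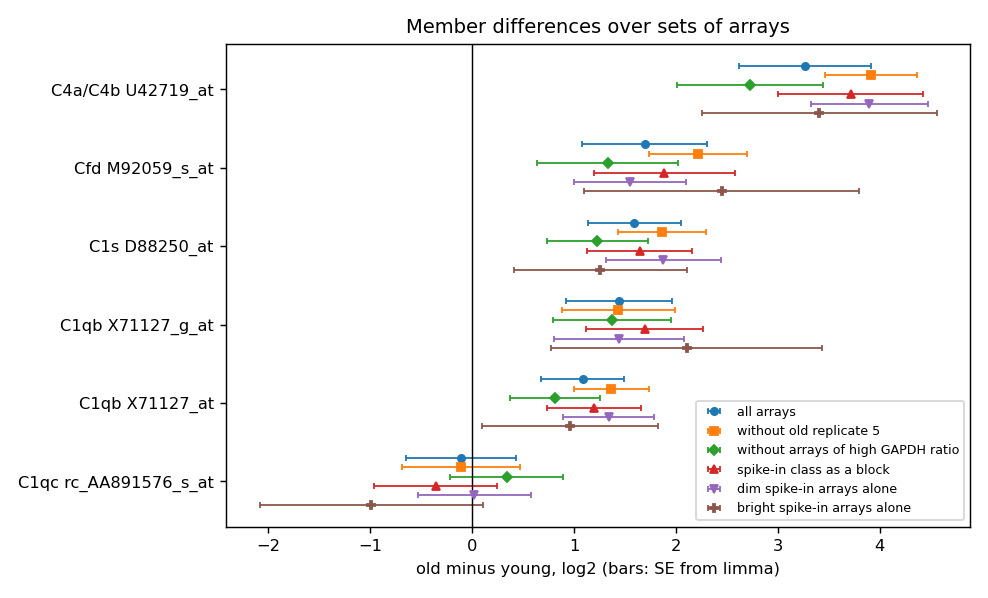
Difference of old minus young (log2, bars are the SE from limma) of the 6 member probe sets above the filter, over all arrays and over 5 other sets of arrays or fits. C4a/C4b lies furthest right throughout, between 2.73 and 3.92, and C1qc lies on both sides of 0.

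Of 35 other complement genes listed, 20 had a probe set and 12 had one above the filter, on 13 probe sets in all. None of the 13 passed limma's adjusted p of 0.05 (smallest adjusted p = 0.56), and 1, Serping1, had an unadjusted p under 0.05. Among all 5244 probe sets tested, 394 had such an unadjusted p, a like share, so Serping1 does not stand out. A count of 8 were higher and 5 lower in old, with a median difference of 0.02. Serping1, the C1 inhibitor that stops C1r and C1s, had a difference of 1.13 ± 0.41 (SE, limma adjusted p = 0.56), with 5 of 6 old arrays above the young mean. It read 492 to 2311 in old with a median of 1629.7, and 472 to 857 in young with a median of 612. C1r, the protease that activates C1s, had a difference of 0.71 ± 0.37 (SE, limma adjusted p = 0.662), with 6 of 6 old arrays above the young mean. The C1r intensities were 841 to 1757 in old and 363 to 1120.2 in young, so the groups overlapped. The values of both lay in the same direction as those of C1s and of U42719_at of C4a/C4b.

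A probe set annotated to both Cfb, of the alternative pathway, and C2, of the classical pathway, differed by 0.76 ± 0.71 (SE, limma adjusted p = 0.825). It cannot be given to either pathway alone. Cfp, encoding properdin, which stabilises the alternative pathway's enzyme, differed by 0.02 ± 0.38 (SE, limma adjusted p = 0.993). Neither stood apart from its spread. Masp1, a protease of the lectin pathway, differed by -0.53 ± 0.54 (SE, limma adjusted p = 0.837). Mbl1 and Mbl2, the lectins that start that pathway, stayed below the filter, and AF080507_g_at of Mbl1 lay at or under the floor on 11 of 11 arrays. Among regulators on the cell surface, Cr1l, a rodent inhibitor of the enzymes that cut C3, differed by -0.63 ± 0.58 (SE, limma adjusted p = 0.82) by one probe set and by 0.32 ± 0.36 (SE, limma adjusted p = 0.85) by another. Cd55, which speeds the decay of those enzymes, differed by 0.13 ± 0.58 (SE, limma adjusted p = 0.975). C5ar1, the receptor for the fragment C5a, differed by 0.69 ± 0.57 (SE, limma adjusted p = 0.797) by AB003042_at and by -0.14 ± 0.31 (SE, limma adjusted p = 0.932) by its other probe set. Clu, encoding clusterin, which blocks the terminal complex, was bright in both groups, at 13.56 ± 0.43 (SD, n = 5) in young against 13.58 ± 0.50 (SD, n = 6) in old on the log2 scale. C8b and C9, parts of the terminal complex, stayed below the filter.

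**Figure D5:**
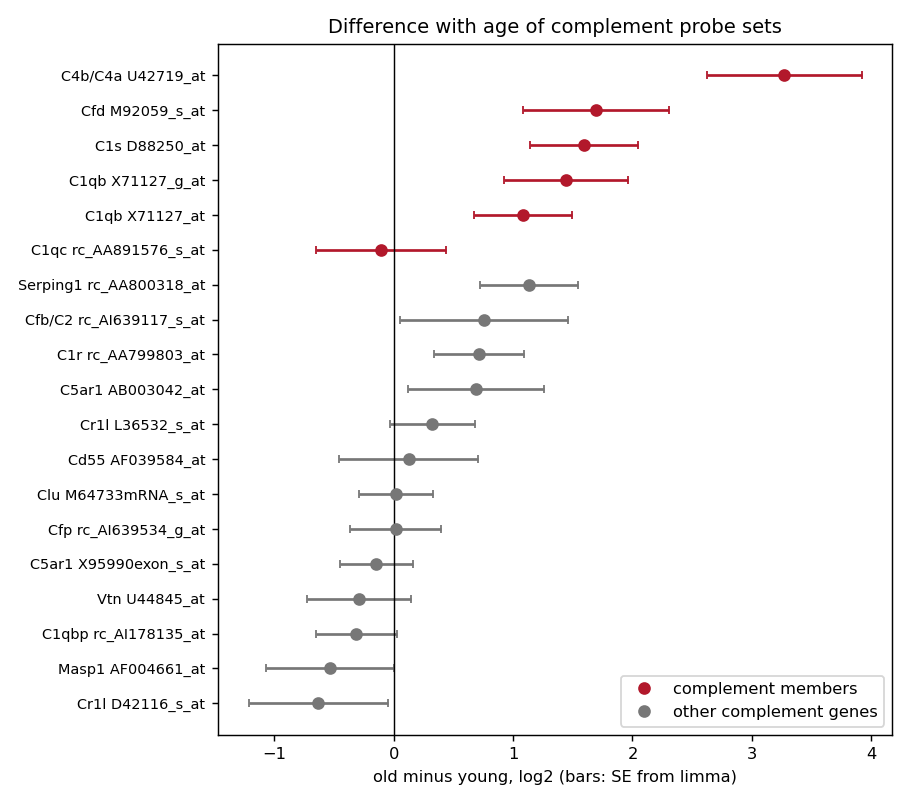
Difference of old minus young (log2, bars are the SE from limma) of the 6 member probe sets and the 13 probe sets of other complement genes above the filter. Serping1 at 1.13 lies among the members, and the other genes lie between -0.63 and 0.76.

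The samples are ventricle, and all 19 probe sets of the ventricular muscle list lay above the filter. The 8 atrial probe sets also did, all with a higher mean in old and a median difference of 1.15, the largest among the lists and near the members' 1.52. They read Nppa, Myl4 and Myl7. The Nppa probe sets differed by 1.18 to 1.87. Those of Myl4 and Myl7 differed by 0.83 to 1.13, with standard errors of 0.65 to 0.95. The summed atrial intensity was 34036 to 230303 in old and 8724 to 68088 in young. Beside C1qb, the macrophage list was higher in old in 5 of 8 tested probe sets, with a median of 0.26. Among these, Ctss differed by 0.80 ± 0.40 (SE, limma adjusted p = 0.661) and Ptprc (M25823_s_at) by 0.82 ± 0.58 (SE, limma adjusted p = 0.76). The rest of its 14 probe sets lay below the filter. Of those, Csf1r, Itgam, U10894_s_at and U17919_s_at of Aif1 and M10072mRNA_s_at of Ptprc had a higher mean in old. K03039mRNA_s_at of Ptprc had a lower one. The summed intensity of the tested macrophage probe sets was 3439.8 to 40341 in old and 3393 to 5384 in young. Their mean was lowest of the old arrays in replicate 5. By their means the other lists set beside members had other lowest old arrays, replicate 4 for fat cells and replicate 6 for fibroblasts and liver. Old replicate 5 was the highest of the old arrays for liver. Single probe sets did not all follow their list in old replicate 5. Ptprc (M25823_s_at) of the macrophage list was highest of the old arrays there, at 9.23 on the log2 scale. Below the filter, Csf1r and U10894_s_at of Aif1 were also highest there, at 8.14 and 8.24. The dim M10072mRNA_s_at of Ptprc lay at the floor on that array. Mgp of the fibroblast list and Fabp4 of the fat cell list were lowest there, at 12.39 and 8.38. Macrophage markers such as Cd68, Cd163 and Mrc1 have no named probe set here, and Lyz2, a lysozyme of macrophages, differed by 1.49 ± 0.65 (SE, limma adjusted p = 0.597). On the log2 scale Lyz2 was at 15.13 in old replicate 3, 1 of the arrays of high GAPDH ratio, and between 9.53 and 11.69 on the other old arrays, and that reading makes up most of the highest sum. Both probe sets of Cd14, a macrophage receptor for bacterial lipopolysaccharide, had a lower mean in old, by -0.50 ± 0.58 and -0.31 ± 0.45 (SE). Beside Cfd, the fat cell list was higher in old in 6 of 17 tested probe sets, with a median of -0.39. Its summed intensity was 13024 to 26219 in old and 15449 to 40660.2 in young, and Adipoq has no named probe set. Within that list the widest differences were those of Lipe, the hormone-sensitive lipase of fat breakdown, at -1.39 ± 0.61 (SE, limma adjusted p = 0.614) and -1.23 ± 0.56 (SE, limma adjusted p = 0.639) by its probe sets. The 3 tested probe sets of Lpl, the lipoprotein lipase, lay between -0.76 and -0.53. In the other direction Fabp4, the fat cell fatty acid binding protein, differed by 0.81 ± 0.45 (SE, limma adjusted p = 0.683) and Plin1, the coat protein of lipid droplets, by 0.84 ± 0.58 (SE, limma adjusted p = 0.755). Beside C1s and C4a/C4b, the fibroblast list was higher in old in 15 of 23 tested probe sets, with a median of 0.35. Its summed intensities were 48058 to 119644 in old and 56278 to 102148 in young. The list split by gene. Every tested probe set of the collagens Col1a1, Col1a2 and Col3a1 had a lower mean in old, by -1.07 to -0.22. Lum differed by 1.19 ± 0.37 (SE, limma adjusted p = 0.537), and the tested probe sets of Dcn, Bgn and Mgp also had a higher mean in old. The liver list was higher in old in 6 of 11 tested probe sets, with a median of 0.03. Its summed intensities were 4069 to 6747 in old and 3487 to 6784 in young. Its widest differences were 2.16 ± 0.61 for Otc (M11266_at) and 1.87 ± 0.58 for Alb (rc_AA860062_at) (SE, limma adjusted p = 0.537 for each). Their young means of 6.15 and 6.24 were dim, against a floor of 5.57 on the log2 scale. In the other direction the widest was -0.84 ± 0.60 (SE), for rc_AA945169_g_at of Ttr. The endothelial list was higher in old in 0 of 3 tested probe sets, with a median of -0.81, and the red cell list in 5 of 6, with a median of 0.38. No probe set of these lists lay at the floor on every array. Their part in the complement values was not tested.

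How the members varied within the age groups was described by the correlation of deviations from the group mean, which leaves out the age contrast. It runs over 11 arrays, which share their scaling and array quality between probe sets. C4a/C4b (U42719_at) and C1qb (X71127_at) had the highest value among the 15 member pairs, r = 0.86. C4a/C4b and Cfd followed with r = 0.76. Much of this rests on old replicate 5, since without it these values were 0.61 and 0.12. Other pairs rose without that array. C4a/C4b and X71127_g_at of C1qb went from 0.33 to 0.66, and C1s and X71127_g_at from 0.50 to 0.64. The probe sets of C1qb were at r = 0.28 with each other, and C1qc (rc_AA891576_s_at) was at or below 0 with all 5 others, from -0.46 to -0.01.

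Among 4305 tested probe sets of other single genes, those closest to C1s in this measure were Cpq, an extracellular carboxypeptidase (r = 0.95), Cst3, the secreted protease inhibitor cystatin C (r = 0.94), and Rnf130 (r = 0.94). Without old replicate 5 they were at 0.93, 0.97 and 0.92. Those closest to C4a/C4b were Efemp1, an extracellular matrix protein (r = 0.93), Pom121, of the nuclear pore (r = 0.91), and Ywhaz (r = 0.91), at 0.71, 0.70 and 0.64 without that array. Closest to Cfd were Gabra4 (r = 0.95), Ptgis, the prostacyclin synthase (r = 0.93), and Decr1, of fatty acid oxidation (r = 0.92), at 0.83, 0.89 and 0.70 without it. For C1qb they were Copb2, Endod1 and Prmt3 by X71127_at (r = 0.85 to 0.91) and Ak4, Fyn and Prdx3 by X71127_g_at (r = 0.86 to 0.98), so the probe sets of C1qb shared no gene among their closest. For C1qc they were Cacna1c, Ocln and Map2 (r = 0.93 to 0.94). With so many candidates and 11 arrays, high values are to be met by chance, and they carry no test.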

How the data were processed

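The authors deposited 1 table of linear intensity values for 8799 probe sets on 11 arrays. How they were computed (image software, background, presence calls) is not given in the sources used here. After trimming 2% at either end, the array means lay between 499.6 and 499.99, so the deposited intensity values were already on a common scale, which was kept. All 59 control probe sets were left out. Intensities were floored at the 20th percentile, put on the log2 scale, filtered at the 40th percentile of mean log2 value and fitted in limma 3.58.1 under R 4.3.3 (lmFit, eBayes with a mean-variance trend, Benjamini-Hochberg adjustment over 5244 probe sets, threshold 0.05). Precision is limited by the number of arrays, with a median standard error of 0.56. Symbols came from GEO's platform annotation. Named were every member probe set, up to 5 other complement genes with the smallest p, 1 or more examples for each role, and the 3 genes closest in deviation to each member. Other genes were chosen after their values were seen. The members and lists were chosen with earlier results of these data known. The fit was tested on simulated data. Alternatives were other floors, other filters, normalization by quantiles or medians, no trend, array weights, a replicate block, the spike-in class of the arrays, leaving out the arrays of high GAPDH ratio, and leaving out each array.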

Additional observations from a re-analysis of the deposited data

Results flagged for a closer look

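In old, Cfd (M92059_s_at) read 6.51 on the log2 scale in replicate 5, while the other 5 old arrays lay between 9.09 and 10.21. The gap to the nearest array was 0.70 of the range of the group. Of 12 groups of member values examined this way 1 stood out, and chance alone gives about 1 in 20.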

How the results depend on the processing

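The differences of C4a/C4b (U42719_at), Cfd, C1s and both C1qb probe sets stayed above 0, the direction for which they had been chosen, under all 24 alternatives, within 2.73 to 3.92, 1.32 to 2.45, 1.23 to 1.88, 0.80 to 1.37 (X71127_at) and 1.15 to 2.11 (X71127_g_at). Other floors, other filters and no trend left these differences unchanged, and the replicate block gave the same ones as leaving out old replicate 6. The 24 alternatives are thus fewer distinct checks than their number. The median over the members was 0.81 without the filter, where all 11 probe sets enter, and 1.25 to 1.71 when single arrays were left out. Median centring moved the median of all probe sets to -0.30 and quantile normalization moved it to -0.12. Relative to it, the members' median under median centring was 1.53, as with the deposited scaling. The median of the other complement genes turned to -0.27 and -0.10 under these scalings, and its count of calls stayed at 0 under all 24 alternatives. The count of probe sets called was 1 (Maoa) among the dim spike-in arrays and 0 to 2 when single arrays were left out. It was 2 without old replicate 5, Gsta1 and the member probe set U42719_at. For U42719_at the call is no support, since it was chosen on this contrast. The bright spike-in arrays hold 1 young array, replicate 4, so their count is not given. On that array Hbb (M94918mRNA_f_at) read 9.21 on the log2 scale, against 13.67 or more on the others. The remaining alternatives gave 0. These genes were named after their values were seen. The classical mean minus Cfd was -1.15 among the bright arrays, where young has 1 array assumed to vary like the others, and -0.45 to 0.02 when single arrays were left out, with 0.02 without young replicate 4. It was above 0 under 3 of 22 alternatives, and the cause was not tested. Replicate numbers of the titles do not pair the arrays, since the deviations of same-numbered arrays correlated at -0.25 to 0.25 and 1 of 5 old arrays correlated best with its own number. With a replicate block the count of calls was 0 and the members' median 1.53. Dim readings limit C3 and the other probe sets under the filter.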
